A study of Mus musculus with 12 samples.

Results

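The S and G2/M phase genes examined here are a module of 50 genes that dividing cells use to copy and to separate their chromosomes. They were taken by name from a list that was drawn up with earlier results of these data known, and all 50 were found among the 33696 genes of the deposited matrices. For description, 20 of them were placed in an S phase list and 30 in a G2/M phase list. The module was followed in γδ T cells sorted from spleen, in γδ T cells sorted from thymus and in thymic DN1-DN3 cells, sorted as a single population of early precursors that carry neither CD4 nor CD8. The mice were WT or GFI1 KO, which lack the transcription factor GFI1 in the germ line, were on a C57BL6/J background and were adult. Cells of both genotypes carried different hashtag antibodies and were pooled before the droplet run, and each pool was split by hashtag into 1 library labelled WT and 1 labelled KO. This made 12 libraries in all, because every genotype was sampled in 2 pools of each of the 3 compartments. Thymic γδ T cells and DN1-DN3 cells were sorted side by side from the same mice. B, myeloid and NK cells had been depleted before the sorts. The number of mice behind each library was not given in the sources used here, so p-values measure the spread between these libraries.

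Progress through the cell cycle is driven by cyclin-dependent kinases, whose cyclin partners are made and destroyed in turn. Before DNA synthesis, the E2F factors switch on the genes of replication: the licensing factors that load the MCM helicase, the clamp Pcna and the enzymes that make deoxynucleotides. Later, another program switches on the mitotic cyclins, the Aurora and Polo-like kinases, and the proteins of the spindle, the kinetochore and the checkpoint. In the thymus, DN cells expand before and after they rearrange their receptor genes, and γδ T cells that have just gained a receptor also divide. Most γδ T cells of the adult spleen are at rest.

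The promoters of 2 S phase and 2 G2/M members are shown because the elements by which the literature tells the programs apart lie there. Sequences are the 250 bases before the annotated start from RefSeq on GRCm38.p6, 5′ to 3′ in the direction of the gene, and capitals mark every match to a searched motif. The deposited counts were made on another build, GRCm39, and the coordinates serve only for these sequences. Mcm5 is a subunit of the MCM helicase, Rrm2 the small subunit of ribonucleotide reductase, Ccnb2 cyclin B2 and Plk1 Polo-like kinase 1. They lie at chr8:75109259-75109508 on the plus strand (Mcm5), chr12:24708004-24708253 on the plus strand (Rrm2), chr9:70421555-70421804 on the minus strand (Ccnb2) and chr7:122159185-122159434 on the plus strand (Plk1).
Mcm5: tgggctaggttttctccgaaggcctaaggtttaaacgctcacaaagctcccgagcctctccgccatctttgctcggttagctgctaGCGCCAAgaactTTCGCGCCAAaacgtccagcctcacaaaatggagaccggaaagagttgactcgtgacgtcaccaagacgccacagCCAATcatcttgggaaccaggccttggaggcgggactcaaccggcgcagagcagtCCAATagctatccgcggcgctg
Rrm2: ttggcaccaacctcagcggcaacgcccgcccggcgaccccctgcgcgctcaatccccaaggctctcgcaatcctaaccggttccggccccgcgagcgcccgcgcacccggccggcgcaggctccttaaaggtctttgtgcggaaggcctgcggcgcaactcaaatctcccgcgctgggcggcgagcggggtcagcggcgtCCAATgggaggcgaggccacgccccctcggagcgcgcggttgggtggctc
Ccnb2: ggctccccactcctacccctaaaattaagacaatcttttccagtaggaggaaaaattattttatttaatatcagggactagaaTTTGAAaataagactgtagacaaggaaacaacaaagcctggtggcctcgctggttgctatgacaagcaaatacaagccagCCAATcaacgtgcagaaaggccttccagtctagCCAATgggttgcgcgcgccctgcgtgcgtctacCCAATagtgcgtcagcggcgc
Plk1: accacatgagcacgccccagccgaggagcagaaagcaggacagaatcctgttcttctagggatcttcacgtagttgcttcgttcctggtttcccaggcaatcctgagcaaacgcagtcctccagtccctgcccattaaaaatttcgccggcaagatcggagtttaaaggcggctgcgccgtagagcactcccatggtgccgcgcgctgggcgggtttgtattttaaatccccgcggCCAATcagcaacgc
In Mcm5 the E2F core TTGGCGC lay on the opposite strand at 164 to 158 and at 149 to 143 bases before the start, and TTCGCGC at 152 to 146, which overlaps the latter. Ccnb2 held the CHR element TTTGAA at 167 to 162 and CCAAT at 87 to 83, 54 to 50 and 21 to 17. CCAAT also occurred at 50 to 46 in Rrm2, at 14 to 10 in Plk1 and in 2 places in Mcm5.

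Promoters were at hand for 43 of the 50 members. An E2F core on either strand, be it TTCCCGC or the variant cores with TTGGCGC for letters or else with TTCGCGC, stood in 6 of 17 S phase promoters (35.3%) and 4 of 26 G2/M promoters (15.4%), against 6.79% of 27025 mouse promoters of the same length. TTTGAA stood in 2 of the 17 (11.8%) and 8 of the 26 (30.8%), against 16.3% of all promoters. CCAAT was found in 11 (64.7%) and 21 (80.8%), against 34.5%. These matches describe letters in a window and are not binding sites.

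The 12 libraries held 6795 to 11679 cells each after filtering, with 42091895 to 71663962 UMIs (unique molecular identifiers, each marking 1 captured transcript) per library and a median of 4947 to 6853 UMIs per cell. No cell barcode was shared by the 2 libraries of a pool, and at most 34 by any 2 libraries of different pools. Levels are given as CPM, the counts of a gene scaled to the same total of UMIs in every library. Gfi1, the targeted gene, was not lower with the label KO: its CPM was 11.8 and 18.0 labelled WT against 18.1 and 18.1 labelled KO in spleen, 16.5 and 17.6 against 28.9 and 19.2 in thymic γδ T cells, and 44.7 and 40.6 against 70.6 and 56.6 in DN1-DN3 cells. The sources used here do not give the deleted part of the gene, so a 3′ tag may lie outside it and this checks nothing. Xist was at most 0.374 CPM in splenic and 739 to 1600 CPM in thymic libraries, and Y-linked Ddx3y was counted in all 12, so sex was not matched across tissues. In DN1-DN3 libraries Ddx3y was at 28.0 and 26.0 CPM labelled WT and 11.6 and 14.2 CPM labelled KO, while Xist overlapped. The mix of sexes may thus also differ between the labels there, and its part was not tested. Trdc, the δ chain constant gene, was at 1233 to 2051 CPM in γδ T and 126 to 199 CPM in DN1-DN3 libraries, but the sum of Trdc, Trgc1, Trgc2 and the Cd3 genes, 4185 to 7835 CPM in γδ T libraries, was also 3963 to 4229 CPM in DN1-DN3 libraries. Ptcra was at 95.4 to 168 CPM in DN1-DN3 and at most 5.07 CPM in γδ T libraries. Il2ra, Ptcra, Notch1 and the other DN markers summed to 1162 to 1373 CPM in DN1-DN3 libraries and to 148 to 871 CPM in γδ T libraries.

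In the libraries labelled WT, the module was far higher in thymic than in splenic γδ T cells. Of the 50 members, 48 were higher in the thymus, with a median log2 difference of 3.27 against −0.01 for all 14911 genes tested. Of all genes, 25.8% were called in this direction and 23.1% in the other. Bub1, a kinase of the spindle checkpoint, differed by 4.30 on the log2 scale (SE 0.29, edgeR adjusted p = 4.26e-06). The S phase list had a median of 1.82 and the G2/M list one of 3.72. Smc4, a subunit of condensin, was the single member called lower in the thymus (log2 −0.61, SE 0.12, edgeR adjusted p = 0.00208). It stood at 806 and 900 CPM in the splenic libraries and at 568 and 611 CPM in the thymic ones. Cdt1, which loads the MCM helicase, was not called (log2 0.25). The splenic libraries stand apart from the thymic ones in droplet run and in Xist, and their part in this difference cannot be told apart from tissue.

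Against WT DN1-DN3 cells, WT thymic γδ T cells were lower in 14 members, all of the S phase list, with 22.8% of all genes called in that direction. Uhrf1, which carries DNA methylation through replication, had the lowest value, −1.50 (SE 0.22, edgeR adjusted p = 0.000489), from 62.7 and 78.4 CPM in thymic γδ T cells against 197 and 207 CPM in DN1-DN3 cells. Ung, the uracil DNA glycosylase, followed with −1.06 and Dut, which removes dUTP, with −1.01. In the G2/M list, 29 of 30 members were not called and the median was −0.03. The exception was Cenpa, the centromeric histone, at 0.48 (SE 0.11, edgeR adjusted p = 0.00581), in a direction in which 24.3% of all genes were called. Cenpa was not called without DN1-DN3 WT replicate 1 or without thymic WT replicate 2, and 8 of the 14 lower calls were kept without thymic WT replicate 1.

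**Figure D1:**
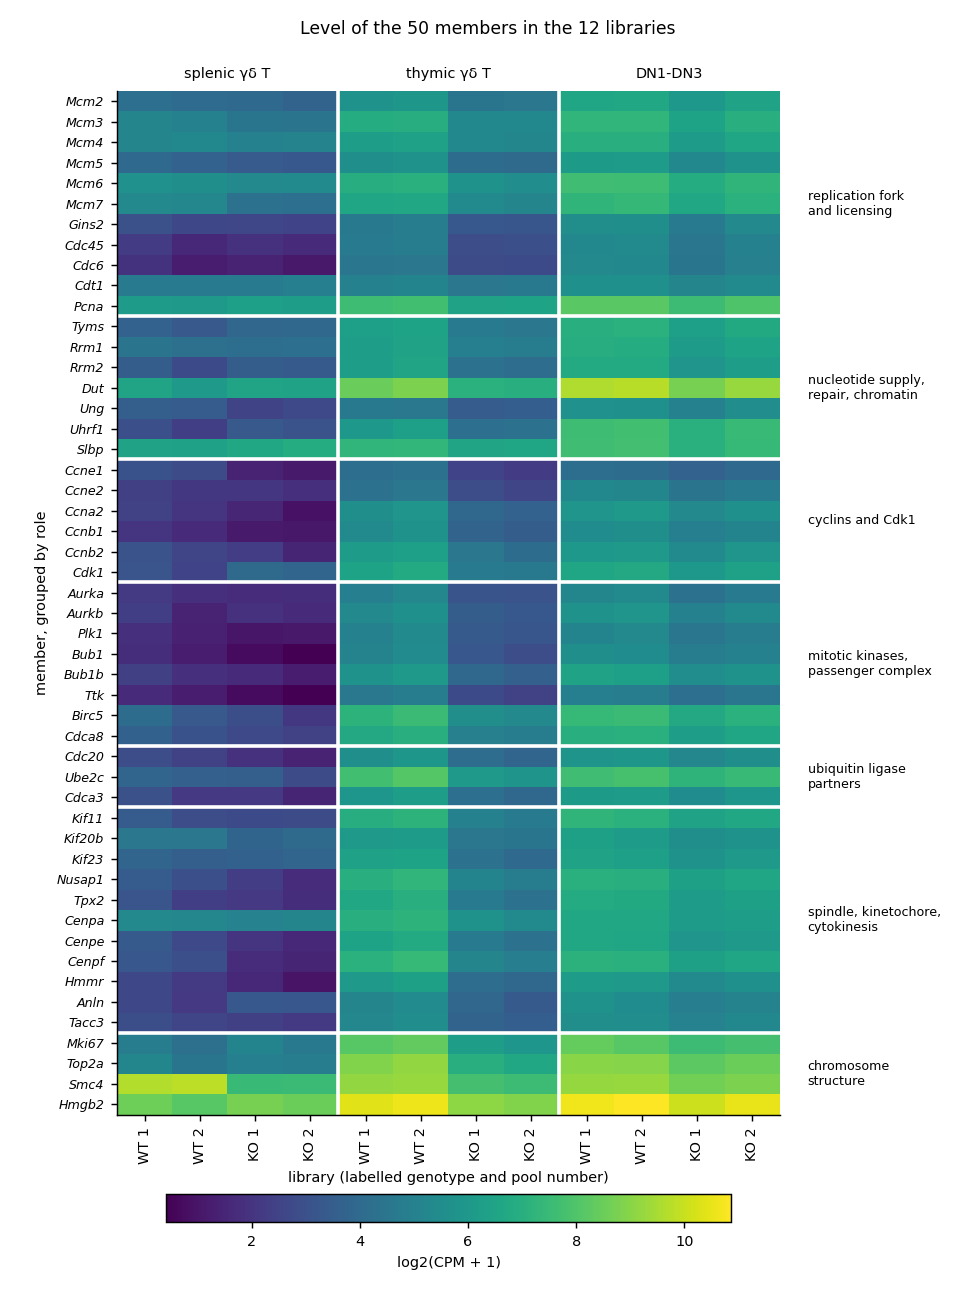
Level of each of the 50 members, as log2(CPM + 1), in the 12 libraries, with members grouped by role and libraries by compartment and labelled genotype. The thymic columns labelled WT are brighter than those labelled KO in every row, while the splenic columns are dark except for Smc4, Hmgb2 and a few S phase members.

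The thymic comparison asked how the module differs between genotypes where γδ T cells are made. All 50 members were lower with the label KO, and 23.7% of all genes tested were called in this direction. The median log2 difference was −1.83, against −0.00 for all genes. In all 50 both libraries labelled KO were below both labelled WT, as they were for 48.3% of all genes tested. The smallest difference was that of Cdt1, −0.35, and the other 49 lay between −0.67 and −2.24. Between 49 and 50 members were called whichever library was left out. The cells labelled KO were also a different mix of cells, as given further on, and sums over a library cannot tell fewer dividing cells from less RNA per cell.

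Replication factors formed the first group. Mcm5 (ENSMUSG00000005410) stood at 48.4 and 52.4 CPM labelled WT and at 16.3 and 15.4 CPM labelled KO, which is −1.55 on the log2 scale (SE 0.19, adjusted p = 0.000116 by edgeR). Pcna (ENSMUSG00000027342), the sliding clamp of the DNA polymerases, went from 196 and 206 CPM to 85.5 and 87.0 CPM (log2 −1.10, SE 0.15). Both genes fell to levels well below those of the thymic γδ T libraries labelled WT. The 11 genes of the fork and of licensing had a median of −1.29, the smallest fall among the role groups.

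Nucleotide supply and the cyclins fell further. Rrm2 (ENSMUSG00000020649) was at 75.7 and 89.9 CPM labelled WT and 18.7 and 16.9 CPM labelled KO, which is −2.10 on the log2 scale (SE 0.24, adjusted p = 7.65e-05 by edgeR). Ccne1 (ENSMUSG00000002068), cyclin E1, which opens S phase, was at 17.5 and 19.2 CPM and at 4.72 and 3.77 CPM (log2 −1.99, SE 0.20). Ccnb1 (ENSMUSG00000041431), cyclin B1, which opens mitosis, was at 41.2 and 52.7 CPM and at 12.5 and 10.3 CPM (log2 −1.92, SE 0.18). Cdk1 (ENSMUSG00000019942), the kinase that cyclin B1 activates, fell in like manner, from 88.8 and 109 CPM to 25.9 and 23.7 CPM, by 1.88 on the log2 scale (SE 0.24). The labelled genotypes were well apart for each of these genes.

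The mitotic groups had the largest differences. Medians were −2.04 for the 8 kinases, checkpoint and chromosomal passenger genes and −2.08 for the 11 genes of the spindle, kinetochore and cytokinesis. With a mean of at least 20 CPM, the 3 largest falls were those of Kif23, a kinesin of the midbody (log2 −2.24, SE 0.15), Bub1 (log2 −2.23, SE 0.25) and Tpx2, which activates Aurora A on the spindle (log2 −2.17, SE 0.27). Kif23 went from 82.5 and 88.9 CPM to 18.6 and 14.8 CPM. Mki67 (ENSMUSG00000031004), which coats mitotic chromosomes and encodes the marker Ki-67, was at 281 and 329 CPM labelled WT and 75.6 and 59.5 CPM labelled KO (log2 −2.05, SE 0.22, edgeR adjusted p = 5.83e-05). Top2a (ENSMUSG00000020914), the topoisomerase that untangles sister chromatids, was at 468 and 572 CPM and at 124 and 99.4 CPM (log2 −2.10, SE 0.23). Genes outside the module that serve the same steps were lower too. Of 24 other replication genes 24 were lower, and of 30 other mitosis genes 28 were lower and none higher. Of 13 cyclins, kinases and inhibitors of G1, 4 were higher and 6 lower, where 26.1% of all genes were called higher.

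Spleen gave a different picture, in which the module split. With the label KO, 21 of the 50 members were lower and 5 higher, while 26.1% of all genes tested were called lower and 28.6% higher. The share of members called higher, 5 of 50, was thus below that of all genes. The median over the members was −0.42, against 0.00 for all genes. Of the 30 G2/M members 17 were lower and 2 higher, with a median of −0.84. Of the 20 S phase members 4 were lower and 3 higher, with a median of −0.14. Leaving out KO replicate 2 left 13 lower calls, and leaving out WT replicate 2 or KO replicate 1 left 2 and 3 higher calls.

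Among the lower members, Smc4 (ENSMUSG00000034349) had the most negative value. Its level was 806 and 900 CPM labelled WT and 174 and 183 CPM labelled KO, which is −2.16 on the log2 scale (SE 0.12, adjusted p = 5.35e-07 by edgeR). Mcm7 went from 39.1 and 36.6 CPM to 19.2 and 18.0 CPM (log2 −0.93, SE 0.16), and Mcm3 from 35.0 and 31.0 CPM to 21.2 and 20.6 CPM (log2 −0.56, SE 0.16). Kif20b went from 22.6 and 22.8 CPM to 12.6 and 15.3 CPM. The other lower members were at low levels, at most 16.1 CPM in any splenic library. Ccne1 was at 7.32 and 6.01 CPM and at 1.73 and 1.27 CPM (log2 −2.07, SE 0.21, edgeR adjusted p = 1.97e-05), and Ccnb1 at 3.02 and 2.15 CPM and at 1.24 and 1.15 CPM (log2 −1.01, SE 0.23). Both genes were lower in each library labelled KO than in either labelled WT, a pattern whose share over all genes is not given here for spleen. The checkpoint and passenger genes Bub1, Ttk, Bub1b, Birc5 and Cdca8 and the mitotic kinase gene Plk1 were lower, with log2 differences of −1.85 to −0.76. Cenpf, Hmmr, Cenpe, Nusap1, Tpx2 and Kif20b of the spindle and kinetochore were lower by −1.79 to −0.61.

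The members called higher were Cdk1, Anln, Uhrf1, Tyms and Slbp. Cdk1 was at 8.10 and 4.72 CPM labelled WT and at 15.4 and 13.1 CPM labelled KO, which is 1.26 on the log2 scale (SE 0.26, adjusted p = 0.00222 by edgeR). Its partners cyclin A2 (Ccna2, log2 −1.33) and cyclin B1 were lower in the same libraries. Anln, the anillin of the cleavage furrow, was at 5.44 and 3.48 CPM and at 8.86 and 8.46 CPM (log2 1.07, SE 0.23, edgeR adjusted p = 0.00276). The calls of Cdk1 and Anln held under the 12 alternatives tried. Uhrf1 (log2 0.69, from 6.72 and 4.17 to 8.97 and 7.40 CPM) was not called without WT replicate 2 (log2 0.38, edgeR adjusted p = 0.259) nor without KO replicate 1. Tyms, thymidylate synthase (log2 0.51, from 12.1 and 8.97 to 13.5 and 14.5 CPM), was not called without WT replicate 2 (log2 0.30, edgeR adjusted p = 0.281) nor without either KO replicate. Slbp, which binds histone mRNA (log2 0.48, from 85.5 and 84.2 to 103 and 119 CPM), lost its call when WT replicate 1, WT replicate 2 or KO replicate 2 was left out (highest adjusted p 0.0911 by edgeR).

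Of the best known markers of cycling, several were not called in spleen. Mki67 was at 27.1 and 18.1 CPM labelled WT and 33.5 and 24.2 CPM labelled KO (log2 0.45, SE 0.22, edgeR adjusted p = 0.109), and the ranges overlapped. Mki67 was called in the fit with the replicate block (log2 0.46, adjusted p = 0.0342) and without KO replicate 2 or WT replicate 1. Top2a was at 36.1 and 21.1 CPM and at 29.8 and 27.8 CPM (log2 0.11, SE 0.23, edgeR adjusted p = 0.715). Pcna (log2 0.25), Rrm2 (log2 0.42) and Mcm5 (log2 −0.43) were not called either, with 73.0 and 64.4, 10.2 and 5.80, and 14.8 and 11.9 CPM labelled WT against 77.7 and 75.3, 10.4 and 9.41, and 9.63 and 8.85 CPM labelled KO. Rrm2 was called without WT replicate 1. Mcm5 was called, as lower, with the replicate block and in a fit of the 4 splenic libraries alone.

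Marker genes of γδ T and other cells moved along with the label in spleen. The γδ T markers summed to 4185 and 4392 CPM labelled WT and 6212 and 6482 CPM labelled KO, with 4 of 6 higher. The 4 αβ T markers Cd4, Cd8a, Cd8b1 and Trac summed to 251 and 199 against 60.0 and 65.2 CPM, with 3 lower. B cell markers summed to 441 and 219 against 120 and 62.2 CPM, of which Ighm made up most in the libraries labelled WT, with 1 of 5 tested called higher and 1 lower and a median log2 difference of −0.12. Cd79b went the other way, from 27.9 and 23.7 to 50.9 and 50.8 CPM, and Pax5 was at most 0.302 CPM in any splenic library. Erythroid markers summed to 40.2 and 35.3 against 147 and 64.9 CPM, with 2 of 5 higher, and myeloid markers to at most 5.89 CPM. The DN markers summed to 355 and 313 against 871 and 823 CPM, with 2 of 7 called higher and 2 lower. Cd44 (96.7 and 83.0 against 552 and 518 CPM) and Il2ra (25.3 and 21.4 against 169 and 158 CPM) made up most of the gap, while Kit was at 25.5 and 25.3 against 1.28 and 1.51 CPM, Ptcra was at most 0.404 CPM and Rag1 was at 0 in all 4 splenic libraries. In thymic γδ T libraries the B, αβ T, myeloid and erythroid sums were each lower in both libraries labelled KO. The B sum was lower through Ighm (139 and 137 against 54.7 and 37.3 CPM), while Cd79b was at 18.0 and 17.7 against 26.5 and 25.7 CPM, and of 5 B markers tested 1 was called higher and none lower, with a median log2 difference of 0.67. The γδ T markers went from 4568 and 4567 to 7196 and 7835 CPM, with 5 of 6 higher and 1 lower, and the DN markers from 148 and 180 to 488 and 641 CPM, with 2 of 7 higher and 3 lower. Cd44 (34.9 and 34.7 against 295 and 420 CPM) and Il2ra (17.5 and 28.4 against 111 and 144 CPM) made up most of the latter gap. Kit was at 28.1 and 27.5 against 7.01 and 4.69 CPM, Ptcra at 2.22 and 5.07 against 1.46 and 1.06 CPM and Rag1 at 4.16 and 7.56 against 2.34 and 2.56 CPM. The part of these cells in the members' differences was not tested.

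Whether the genotype effect differs between spleen and thymic γδ T cells was tested as an interaction. The splenic libraries also stand apart in droplet run and in Xist, and their part in a difference of effects cannot be told apart from tissue. The effect was more positive in spleen than in thymic γδ T cells for 35 of the 50 members, where 13.6% of all genes were called, and more negative for 1, where 15.9% were. The median difference of effects was 1.16, against −0.05 for all genes. Cdk1 had 3.14 (SE 0.35, edgeR adjusted p = 0.000268), Anln 2.72, and Mki67, Rrm2 and Uhrf1 2.51 each. Top2a differed by 2.21, Tyms by 2.18, Pcna by 1.35, Slbp by 1.14, Mcm5 by 1.12 and Ccnb1 by 0.92. The member more negative in spleen was Smc4 (−0.76, SE 0.17, edgeR adjusted p = 0.00811). Ccne1, at −0.08, was not called, and it was lower in both tissues. As all 50 members were called lower in thymus, the 21 lower and 5 higher calls of spleen already fix how the calls overlap. The overlap is thus no further result. Leaving out thymic WT replicate 2 gave 22 positive calls, and Ccnb1 or Mcm5 lost the call without several of the libraries.

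**Figure D2:**
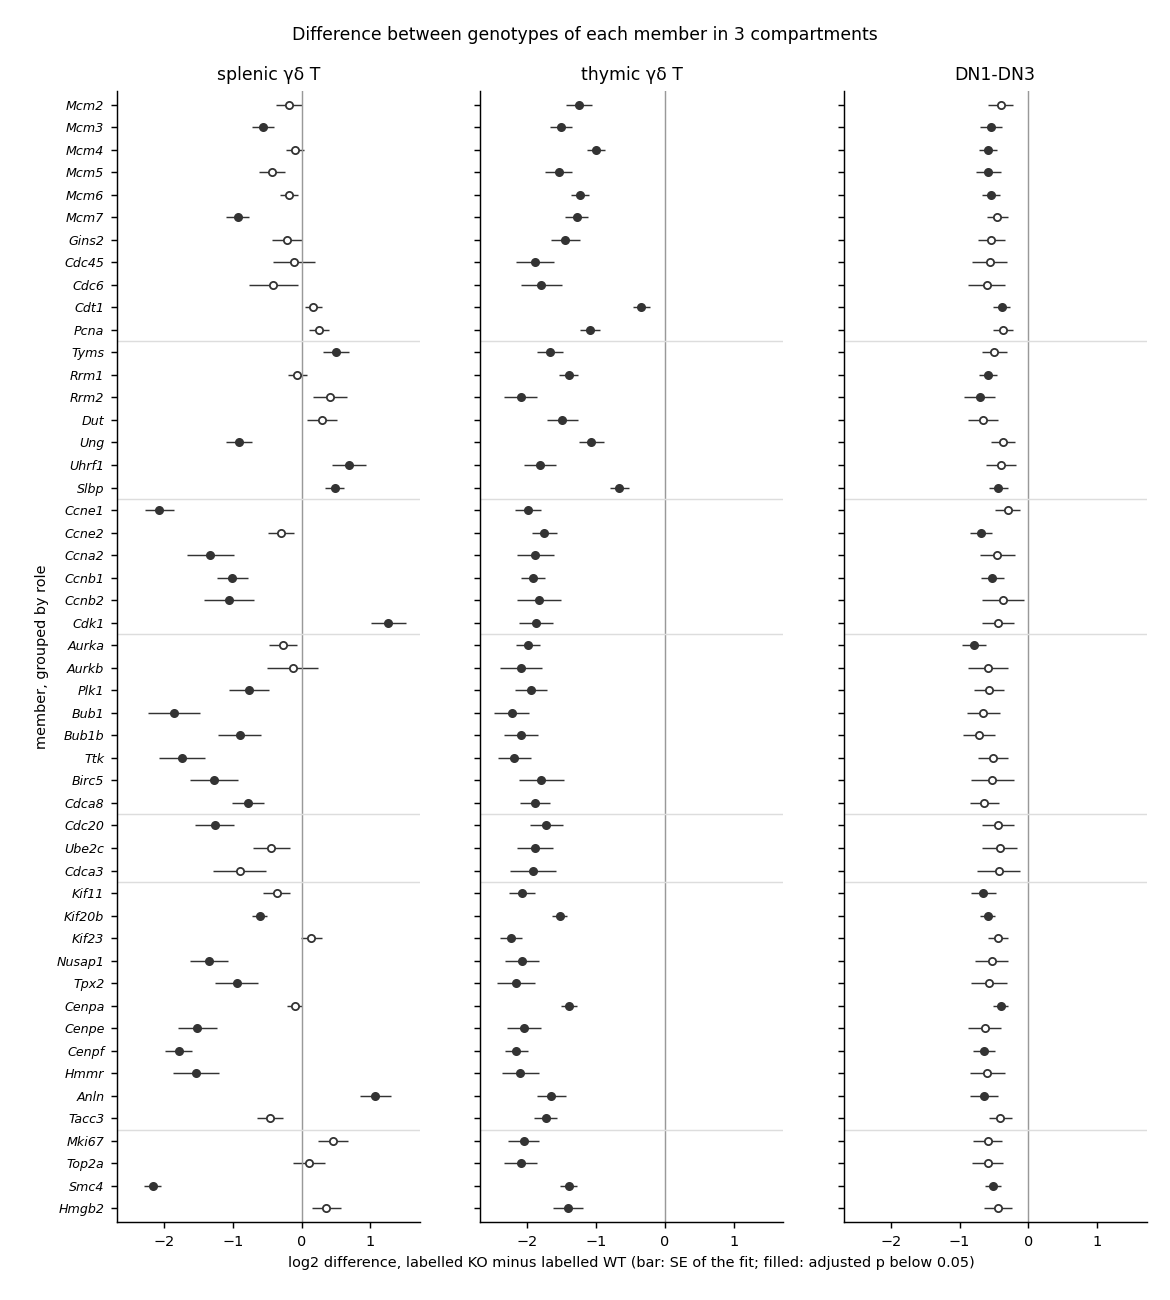
Log2 difference of each member, libraries labelled KO minus those labelled WT, in splenic γδ T, thymic γδ T and DN1-DN3 cells. Bars are the SE of the fit and filled points passed an adjusted p of 0.05. In thymic γδ T cells all 50 points lie left of 0, in DN1-DN3 cells they lie nearer to 0 with 17 filled, and in spleen they spread to both sides, from Smc4 at −2.16 to Cdk1 at 1.26.

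The DN1-DN3 comparison showed the same direction at a smaller size. With the label KO, 17 of the 50 members were called lower and none higher. Of all genes, 7.73% were called lower, and 2272 of the 14911 tested were called higher. All 50 values were negative, with a median of −0.54 against −0.02 for all genes. The lower members were 9 of the S phase and 8 of the G2/M list. This count depends on each library. Leaving out WT replicate 2 gave 1, KO replicate 1 gave 4, WT replicate 1 gave 5 and KO replicate 2 gave 35, and the count was 41 with the replicate block, 27 by DESeq2 and 10 in a fit of these 4 libraries alone.

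Among called members with a mean of at least 20 CPM, the most negative values were those of Aurka, the Aurora A kinase of the spindle poles (36.2 and 40.5 CPM labelled WT, 19.7 and 24.5 CPM labelled KO, log2 −0.79, SE 0.17, edgeR adjusted p = 0.00800), Rrm2 (110 and 110 against 57.3 and 76.4 CPM, log2 −0.71, SE 0.23, adjusted p = 0.0492) and cyclin E2, Ccne2 (38.2 and 35.8 against 20.4 and 25.2 CPM, log2 −0.69, SE 0.17, adjusted p = 0.0144). In each of them the library labelled KO of pool 1 was lower than that of pool 2. Mcm5 (67.9 and 71.6 against 37.8 and 54.8 CPM, log2 −0.58) and Ccnb1 (44.2 and 47.8 against 29.6 and 34.1 CPM, log2 −0.53) were called with adjusted p of 0.0453 and 0.0458 by edgeR. Every one of these 5 calls was lost without WT replicate 2. Mki67 (335 and 285 against 192 and 217 CPM, log2 −0.59), Top2a (507 and 497 against 301 and 363 CPM, log2 −0.59), Pcna (289 and 288 against 192 and 253 CPM, log2 −0.37), Cdk1 (93.3 and 106 against 62.4 and 83.4 CPM, log2 −0.44) and Ccne1 (17.2 and 16.1 against 11.8 and 15.0 CPM, log2 −0.30) were not called. Both libraries labelled KO were below both labelled WT for each of these genes, which was so for 31.0% of all genes tested. With the replicate block, Mki67, Top2a, Pcna and Cdk1 were called, with adjusted p of 0.0235, 0.0490, 0.0296 and 0.0408 by edgeR. Of 24 other replication genes 15 were lower, and of 30 other mitosis genes 11 were lower and 1 higher. The αβ T markers summed to 27.3 and 31.3 CPM labelled WT and 164 and 72.0 CPM labelled KO, most of it Trac, which was called higher. B cell markers summed to 114 and 121 against 135 and 259 CPM, most of it Ighm, with 2 of 5 tested called higher and a median log2 difference of 1.79. Of the 7 DN markers 2 were higher and 1 lower, and Cd44 was at 14.4 and 10.3 against 136 and 49.8 CPM. Cells with Ptcra made up 43.6% and 48.8% labelled WT and 29.1% and 47.4% labelled KO. Erythroid markers summed to 12.1 and 12.1 against 4.09 and 3.32 CPM, with 1 of 5 lower. The part of these cells in the members' differences was not tested.

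Set against the DN1-DN3 cells of the same mice, the effect in thymic γδ T cells was more negative for 43 of 50 members, where 13.0% of all genes were called. The fit took the libraries of both sorts as independent, and the replicate block did not link them either. The median difference of effects was −1.31, against −0.01 for all genes. For Ccne1 it was −1.69 (SE 0.27, edgeR adjusted p = 0.00207), for Top2a −1.51, for Mki67 −1.46, for Cdk1 −1.43, for Rrm2 and Ccnb1 −1.39, for Mcm5 −0.97 and for Pcna −0.73. In the G2/M list 29 of 30 members were called and in the S phase list 14 of 20. The count was 17 without thymic KO replicate 2, 18 without thymic WT replicate 2, 23 without DN1-DN3 WT replicate 1 and 28 without either DN1-DN3 WT replicate 2 or DN1-DN3 KO replicate 2.

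As a share of all UMIs, the 50 members took 0.632% and 0.742% in thymic γδ T cells with the label WT, against 0.223% and 0.196% with the label KO. In DN1-DN3 libraries the shares were 0.819% and 0.851% against 0.507% and 0.654%. In spleen they were 0.203% and 0.188% against 0.131% and 0.124%. The labels did not overlap in any compartment. An exact permutation test (two-sided) gave p = 0.33 in each of them, which is as low as 2 against 2 libraries can go, so that no share of UMIs or cells below could give a lower p. The splenic difference came to −0.0679 points, and without Smc4 it was −0.000395 points, with overlapping values of 0.122% and 0.0981% labelled WT against 0.114% and 0.106% labelled KO. The S phase members of the spleen also overlapped (0.0552% and 0.0484% against 0.05005% and 0.0510%).

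Counts of cells complement the sums. A cell with at least 1 Mki67 UMI was found in 22.7% and 26.1% of thymic γδ T cells labelled WT and 12.02% and 9.81% of those labelled KO. In DN1-DN3 cells the shares were 34.1% and 30.7% against 21.9% and 25.7%. Spleen went the other way, with 3.08% and 1.91% labelled WT and 12.6% and 10.8% labelled KO, a difference of 9.21 points. To take out depth, each cell was thinned to 3000 UMIs, leaving out 351 to 1791 shallower cells per library. In spleen these were 1170 of 7820 and 1791 of 11160 cells labelled WT, and 351 of 7815 and 591 of 11679 labelled KO. The label WT thus lost more of its cells there. The thinned shares were 2.12% and 1.28% against 6.62% and 5.95% in spleen, 18.02% and 20.4% against 7.75% and 6.21% in thymic γδ T cells, and 27.2% and 23.8% against 16.2% and 18.6% in DN1-DN3 cells. The label KO was above the label WT in spleen and below it in both thymic compartments, without overlap. At 2 or more Mki67 UMIs the splenic shares were 1.24% and 0.726% against 3.02% and 1.94%.

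A cell can hold an Mki67 UMI that comes from free RNA, and cells with none of the other 49 members were counted beside the rest. These cells were not shown to hold free RNA alone, and both labels of a pool shared a droplet run. In spleen, 1.09% of 183 and 0.735% of 272 such cells labelled WT had Mki67, and 6.14% of 114 and 4.79% of 167 labelled KO, at median depths of 1521, 1362.5, 2990.5 and 2048 UMIs. The unthinned shares over all splenic cells, given above, are at a median depth of 4947 to 5458 UMIs. The thinned ones were 2.12% and 1.28% labelled WT, and 6.62% and 5.95% labelled KO. In KO replicate 1 the cells without other members lay close to the thinned depth. Their 6.14% is of 114 cells, and the thinned 6.62% is of 7464 cells. In the other splenic libraries the cells without other members were shallower. How much of the thinned share is free RNA was not tested. The share in the cells without other members was also higher with the label KO, in deeper cells. Among thymic γδ T cells it was 3.80% of 79 and 2.86% of 70 cells labelled WT, and 9.68% of 124 and 5.76% of 139 labelled KO, at median depths of 1837, 1687, 2000.5 and 1974 UMIs, against 5665 to 6853 UMIs over all thymic γδ T cells. At such unequal depths the shares in cells without other members cannot be set against the unthinned shares over all cells. Only the cells without other members of splenic KO replicate 1 lay near the thinned depth. In DN1-DN3 libraries no more than 8 to 23 cells lacked the other 49 members, of which 12.5% and 18.2% labelled WT and 4.35% and 5.88% labelled KO had Mki67. Free RNA was not measured otherwise.

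Further members were counted in thinned cells. Cdk1 was found in 1.02% and 0.598% of splenic cells labelled WT and 4.41% and 3.58% of those labelled KO, and Top2a in 2.90% and 1.88% against 6.48% and 6.76%. Ccnb1 was found in 0.361% and 0.395% against 0.281% and 0.289%, near what single UMIs give. Smc4 was present in 74.6% and 79.3% of splenic cells labelled WT and 37.6% and 40.1% labelled KO, and Hmgb2, a chromatin protein that bends DNA, in 46.8% and 45.1% against 63.5% and 62.1%. In splenic cells with none of the other 48 members, Smc4 was found in 71.9% and 78.3% labelled WT and 36.7% and 41.7% labelled KO, and Hmgb2 in 44.3% and 42.5% against 59.9% and 60.6%. How much of this is free RNA was not tested. At least 3 of the other 28 G2/M members were found in 1.41% and 0.865% of splenic cells labelled WT and 1.39% and 1.24% of those labelled KO, which overlapped. Without thinning they did not, at 2.77% and 2.13% against 5.87% and 6.37%. In thymic γδ T cells the same share was 21.3% and 25.3% against 5.59% and 4.90%, and in DN1-DN3 cells 38.6% and 35.7% against 21.1% and 27.9%.

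**Figure D3:**
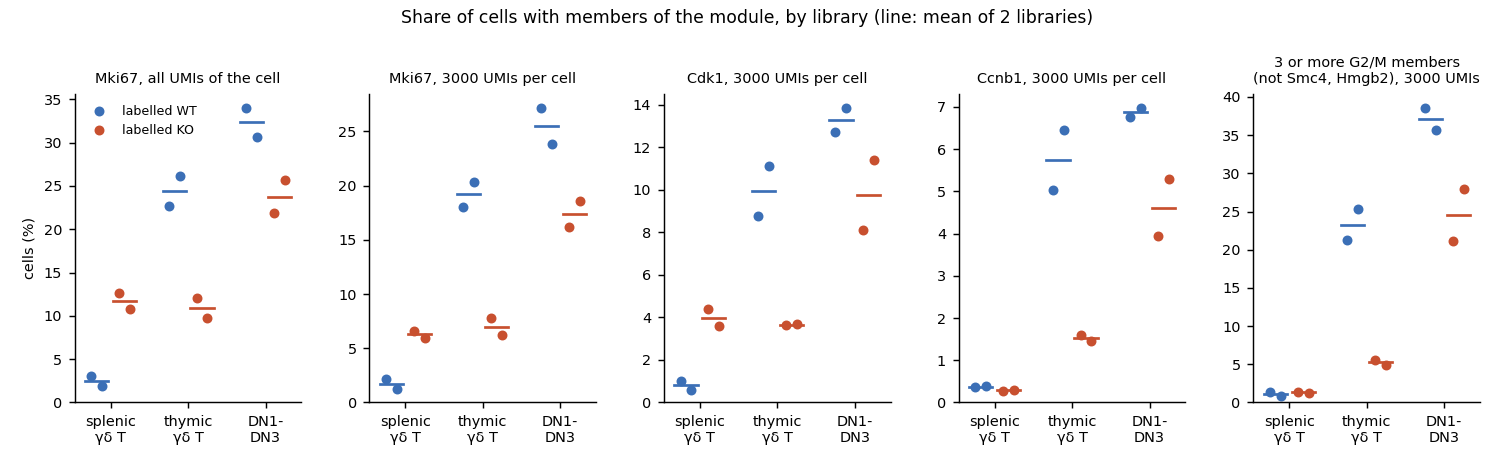
Percent of cells with a member in each library (points) and the mean of 2 libraries (lines), by compartment and labelled genotype, for Mki67 over all UMIs and, in cells thinned to 3000 UMIs, for Mki67, Cdk1, Ccnb1 and at least 3 G2/M members other than Smc4 and Hmgb2. In spleen the label KO lies above the label WT for Mki67 and Cdk1 and overlaps it for the last measure, while in both thymic compartments it lies below for all 5.

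The company that Mki67 kept differed between the labels. In splenic cells with Mki67, thinned to 3000 UMIs, at least 3 other G2/M members (Smc4 and Hmgb2 left aside) were found in 43.3% and 37.5% of the cells labelled WT and in 7.69% and 3.33% of those labelled KO. These shares are of 141 and 120 cells labelled WT and 494 and 660 labelled KO. Top2a was found in 39.7% and 35.0% against 11.3% and 9.24% of them. On average, 9.55 and 8.98 other members were detected per Mki67-positive cell labelled WT and 3.75 and 3.17 per such cell labelled KO. Mki67-negative cells held 2.69 and 2.75 against 2.66 and 2.79. In thymic γδ T cells the share with at least 3 others was 82.6% and 84.8% against 32.9% and 34.3%, and in DN1-DN3 cells 83.0% and 83.9% against 66.0% and 76.3%.

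The same was seen from the side of the UMIs. In spleen, 68.7% and 69.6% of the Mki67 UMIs labelled WT lay in cells with at least 3 other G2/M members, and 14.1% and 7.49% of those labelled KO. For Top2a the shares were 58.0% and 54.3% against 11.7% and 5.71%, and for Cdk1 50% and 44.8% against 5.68% and 3.62%. Bub1 did not follow, with 79.2% and 70.8% against 87.5% and 55.6%, from 24, 24, 8 and 9 UMIs. Outside the cells with at least 3 others, Mki67 was at 4.27 and 3.12 CPM labelled WT and 23.1 and 21.4 CPM labelled KO, Top2a at 7.97 and 5.60 against 22.8 and 25.03 CPM, and Cdk1 at 2.03 and 1.33 against 15.0 and 12.1 CPM. Ccna2 (0.559 and 0.682 against 0.634 and 0.578 CPM) and Ccnb1 (0.508 and 0.933 against 0.679 and 0.913 CPM) overlapped there. Inside those cells Mki67 was at 722 and 896 CPM labelled WT and 378 and 190 CPM labelled KO. In thymic γδ T cells 93.2% and 93.5% of Mki67 UMIs lay in such cells labelled WT and 58.9% and 56.7% of those labelled KO, and in DN1-DN3 cells 92.4% and 92.0% against 83.4% and 88.3%. As these cells were chosen by members of the module, the values are a description.

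**Figure D4:**
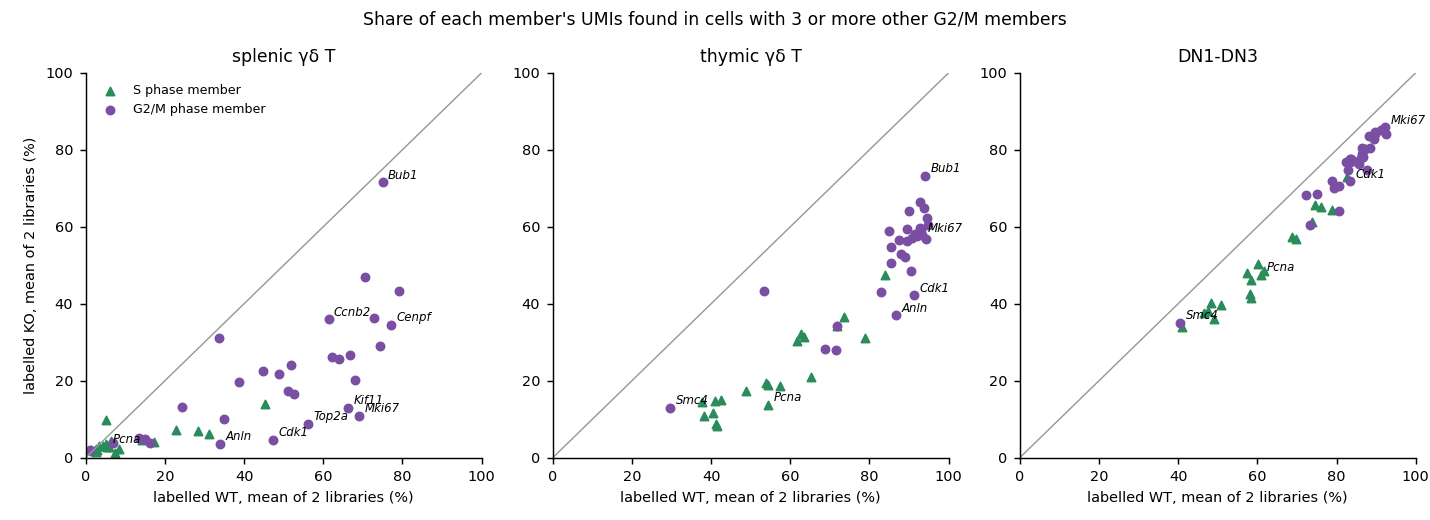
For each member, the percent of its UMIs found in cells with at least 3 other G2/M members (Smc4 and Hmgb2 not counted), in thinned cells, as the mean of 2 libraries labelled WT (x axis) and 2 labelled KO (y axis). The grey line marks equal shares. In spleen Mki67, Top2a and Cdk1 lie far below the line and Bub1 near it, in thymic γδ T cells nearly all members lie below it, and in DN1-DN3 cells they lie close under it.

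Cells labelled KO and WT differ in their γ chain genes, so the splenic comparison was repeated among cells whose leading Trgv gene was Trgv6. These were 188 and 229 cells labelled WT (2.40% and 2.05% of the cells) and 3422 and 4613 labelled KO (43.8% and 39.5%). Because the Trgv genes resemble each other in sequence, some calls may be wrong, and a call could rest on a single UMI. The paper places almost all KO splenic γδ T cells in Vγ6-type clusters and states that 3′ data capture variable regions unreliably. The other classes labelled KO may therefore hold cells of the Vγ6 type, which was not tested. Among the Trgv6-called cells, markers of cell types also moved with the label. Of 3 αβ T markers tested 2 were lower (median log2 −3.15), as was 1 of 2 B cell markers and 1 of 6 γδ T markers. Of 5 DN markers 1 was higher and 1 lower. Their part was not tested. Of the 50 members, 29 were lower with the label KO and none higher. Of the 11492 genes tested, 6.80% were called lower and 598 genes were called higher. The 29 lower members were 24 of the G2/M and 5 of the S phase list. The median was −1.21, against 0.01 for all genes. Without KO replicate 2 the count was 16 of 43 members tested, and with 188 cells drawn from each library 20 of 37.

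Mki67 was at 98.8 and 78.3 CPM in Trgv6-called cells labelled WT and 33.5 and 25.9 CPM in those labelled KO (log2 −1.61, SE 0.19, edgeR adjusted p = 0.000524). The labels were apart. The direction was opposite to the log2 difference of 0.45 over whole splenic libraries, which was not called and came from overlapping libraries. Among called members with a mean of at least 20 CPM, Ube2c, the E2 enzyme of the anaphase-promoting complex, had the most negative value (63.0 and 46.9 against 8.95 and 6.16 CPM, log2 −2.90, SE 0.26), before Mki67 and Rrm2 (27.2 and 34.9 against 11.1 and 10.6 CPM, log2 −1.57, SE 0.22). Top2a was also lower (67.3 and 69.0 against 31.7 and 30.3 CPM, log2 −1.18), as were Ccnb1 (7.66 and 5.69 against 1.11 and 1.19 CPM, log2 −2.56) and Ccne1 (3.41 and 7.11 against 1.44 and 1.26 CPM, log2 −2.04). Ccne1 lost its call with the replicate block (adjusted p = 0.0657 by edgeR) and without KO replicate 1, KO replicate 2 or WT replicate 2, and Ccnb1 without either KO replicate. Cdk1 (21.3 and 7.11 against 15.5 and 13.0 CPM, log2 0.01), Pcna (79.2 and 64.7 against 76.3 and 74.7 CPM, log2 0.03) and Mcm5 (15.3 and 15.7 against 9.23 and 9.63 CPM, log2 −0.76, edgeR adjusted p = 0.0843) were not called, and the first 2 overlapped.

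The share of thinned cells with Mki67 was then set out by Trgv call. Among Trgv6-called splenic cells it was 7.69% and 9.57% labelled WT and 7.10% and 6.17% labelled KO. Among Trgv2-called cells it was 1.67% and 1.07% against 6.68% and 6.49%, and among Trgv1-called cells 1.30% and 0.961% against 4.88% and 4.05%. Cells with no call gave 2.50% and 1.13% against 6.12% and 5.52%. Every class but Trgv6 was thus higher with the label KO, by a gap wider than that between its own libraries, while for Trgv6 the label KO was the lower one in both pools, with Mki67 in 14 of 182 and 20 of 209 cells labelled WT. Without thinning the Trgv6 shares overlapped, at 14.9% and 10.9% against 13.8% and 11.6%. In a fit of splenic libraries without the Trgv6-called cells, 5 members were higher and 19 lower, where 27.4% of all genes tested were called higher and 26.4% lower. In thymic γδ T cells, Trgv6 led in 0.601% and 0.715% of cells labelled WT, against 29.8% and 35.3% of those labelled KO. Thinned Mki67 shares there were 18.6% and 22.5% against 9.73% and 8.91% for Trgv2. For Trgv1 they were 23.4% and 22.5% against 5.45% and 7.53%, and without a call 14.8% and 16.8% against 7.25% and 6.35%. Trgv4-called cells overlapped, and Trgv6-called cells labelled WT were only 41 and 57. How far this mix shapes the thymic differences was not tested.

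**Figure D5:**
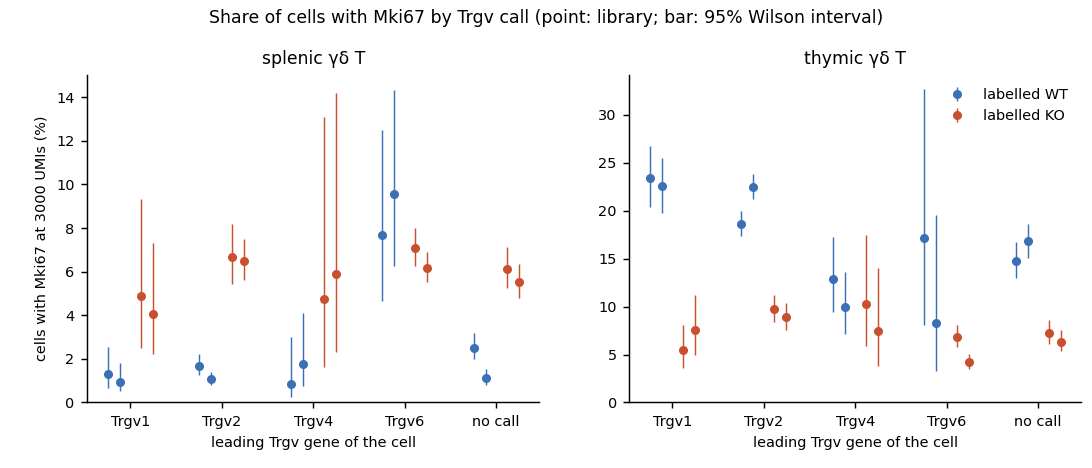
Percent of cells with Mki67, thinned to 3000 UMIs, by the leading Trgv gene of the cell, in splenic (left) and thymic (right) γδ T cells. Points are libraries and bars are 95% Wilson intervals, which cover counting error. In spleen the label WT is low except for Trgv6, where it lies at or above the label KO, and in thymus the label WT lies above the label KO in the well-filled classes.

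The stage of thymic cells was also held in view. Cells with Cd24a, which marks immature γδ T cells, made up 20.8% and 24.3% of thymic γδ T cells labelled WT and 6.48% and 4.67% of those labelled KO. In thinned cells, Mki67 was found in 23.4% and 29.7% of cells positive for Cd24a labelled WT and 14.8% and 16.8% of those labelled KO. Among cells without Cd24a it was found in 17.4% and 19.3% against 7.52% and 5.98%. The label KO was lower on both sides of the split. In DN1-DN3 cells with Ptcra, the pre-T receptor chain, the shares were 15.7% and 14.1% against 12.9% and 11.2%, and without Ptcra 31.8% and 28.6% against 17.0% and 22.6%. Thinning also changes who counts as positive, as cells with Ptcra went from 43.6% to 28.5% of WT replicate 1 and cells with Cd24a from 20.8% to 9.72% of the thymic WT replicate 1. Over all UMIs, Mki67 was found in 32.4% and 29.8% of DN1-DN3 cells with Ptcra labelled WT and 27.0% and 25.9% of those labelled KO, and without Ptcra in 35.3% and 31.5% against 19.8% and 25.5%. The classes with and without Ptcra thus lay close together in the libraries labelled WT before thinning. For Cd24a the shares over all UMIs were 44.1% and 47.6% against 29.3% and 31.7% with it, and 17.1% and 19.2% against 10.8% and 8.73% without.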

How the data were processed

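Gene expression was measured by 10x 3′ sequencing of hashtagged pools, and the 12 demultiplexed matrices deposited by the authors hold whole UMI counts for each gene in each cell. Per the processing notes they were made with Cell Ranger 8.0.1 on GRCm39, and per the methods the authors demultiplexed with hashsolo, which removes droplets with both hashtags. No other doublet caller was run. The matrices give the genotype in the names of their parts, and the hashtag of the named genotype led in 99.6% to 100% of the cells.

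Barcodes under 500 UMIs, under 200 genes or over 20% mitochondrial counts were dropped, following the authors, which left 96911 of 97404 barcodes. Ribosomal, mitochondrial and Gm genes (9548 by name) were left out of tests. Counts were summed per library and compared with the edgeR 4.0.16 quasi-likelihood F test (R 4.3.3, limma 3.58.1, TMM, default filter on low counts), as contrasts in 1 fit of the 12 libraries, or of the 4 splenic libraries for Trgv6-called cells. P-values are two-sided and Benjamini-Hochberg adjusted over all genes tested, and a gene was called at an adjusted p under 0.05. The cell-level rank test of the authors was not used, since cells are not replicates. The fits were tested on simulated counts. DESeq2 1.42.0 was an alternative, with RLE size factors, no filter, all genes, all barcodes, the replicate block and single libraries left out. Tables and shares were made with Python 3.11.15, numpy 2.4.6, scipy 1.17.1, pandas 2.3.3 and matplotlib 3.10.9. Intervals are 95% Wilson intervals for counting error.

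The members and lists were chosen with earlier results of these data known. Mki67, Top2a, Pcna, Mcm5, Rrm2, Ccne1, Ccnb1 and Cdk1 are given in every comparison of genotypes, with the 3 called members of largest positive and of most negative difference at a mean of at least 20 CPM and any called member that moved against most, and other members named were chosen after their values were seen. The pool number pairs the libraries, because both genotypes of a pool share a droplet run. The deviations of paired libraries correlated at 0.39 in spleen, 0.0557 in thymic γδ T cells and 0.283 in DN1-DN3 cells. Chosen after seeing the data were the fit without Trgv6-called cells, the sums without Smc4, the count of at least 3 G2/M members other than Smc4 and Hmgb2 and the use of all barcodes for the Mki67 share.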

Additional observations from a re-analysis of the deposited data

Results flagged for a closer look

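The effect of the label KO differed between compartments, by a test of the difference itself, for many members. Between spleen and thymus, tissue cannot be told apart from droplet run and from Xist. Spleen was more positive than thymic γδ T cells for 35 of the 50 members, where 13.6% of all genes were called. It was more negative for 1, where 15.9% of all genes were called. On the log2 scale the difference of effects was 3.14 for Cdk1, 2.72 for Anln, 2.51 for Mki67, 2.51 for Rrm2, 2.51 for Uhrf1, 2.21 for Top2a, 2.18 for Tyms, 1.35 for Pcna, 1.14 for Slbp, 1.12 for Mcm5, 0.92 for Ccnb1 and −0.76 for Smc4. Thymic γδ T cells were more negative than DN1-DN3 cells for 43 of the 50 members, where 13.0% of all genes were called. The difference was −1.69 for Ccne1, −1.51 for Top2a, −1.46 for Mki67, −1.43 for Cdk1, −1.39 for Rrm2, −1.39 for Ccnb1, −0.97 for Mcm5 and −0.73 for Pcna.

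The shares of cells given next moved in opposite directions in both pools of spleen and of thymic γδ T cells, and these differences between tissues were not tested. Other shares did not: thinned Ccnb1 and Smc4 were lower with the label KO in both tissues, and at least 3 G2/M members other than Smc4 and Hmgb2 overlapped in spleen at 3000 UMIs per cell. For cells with Mki67 the label KO minus the label WT was 9.21 points in spleen and −13.5 points in thymus, and 4.58 and −12.2 points at 3000 UMIs per cell. At that depth it was 3.18 and −6.28 points for Cdk1, 4.23 and −15.7 points for Top2a, 2.19 and −24.7 points for at least 3 G2/M members with Smc4 and Hmgb2 counted, and 2.12 and −18.8 points for at least 3 S phase members.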

How the results depend on the processing

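All 50 members were called lower in thymic γδ T cells under every alternative that kept the 12 libraries, and 49 to 50 when a library was left out. The splenic counts gave 3 higher members with no filter on low counts, and 2 to 6 higher and 13 to 25 lower members with a library left out. The DN1-DN3 count of 17 lower members was 27 by DESeq2, 10 in a fit of its 4 libraries alone, 41 with the replicate block and 1 to 35 with a library left out. With a library left out, the positive interactions of spleen and thymus numbered 22 to 35, the negative ones of thymic γδ T and DN1-DN3 cells 17 to 47, the WT members higher in thymic γδ T than in DN1-DN3 cells 0 to 1 and those lower 8 to 13, and the lower members of Trgv6-called cells 16 to 28. The paired fit with the replicate block gave 7 higher and 24 lower members in spleen, 37 positive interactions, and 26 lower members in Trgv6-called cells, and it changed no other count by over 1.5 times except that of DN1-DN3 cells.

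Values near 0 turned sign. Top2a in spleen was −0.23 (without WT replicate 2) to 0.48 with a library left out. In Trgv6-called cells, Pcna was −0.13 to 0.22 with a library left out, and Cdk1 −0.02 by DESeq2, −0.37 with the same number of cells and −0.64 to 0.99 with a library left out. The Ccne1 interaction of spleen and thymus was −0.33 to 0.17 with a library left out.

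With ribosomal, mitochondrial and Gm genes out of the denominator, the difference in the share of UMIs was −0.107 points (all members), −0.0079 points (S phase) and −0.0995 points (G2/M) in spleen and −0.614, −0.143 and −0.471 points in thymic γδ T cells. Without Smc4 the splenic differences were −0.000395 points for all members and 0.000891 points for G2/M, and the S phase difference was −0.0047 to 0.00212 points with a library left out, the latter without WT replicate 1. The splenic difference in the share of cells with Mki67, 9.21 points, was 4.58 at 3000 UMIs per cell, 1.5 at 2 or more UMIs, 12.4 for at least 3 G2/M members and 3.67 for at least 3 of them other than Smc4 and Hmgb2, the last 3 without thinning. In thymic γδ T cells these last 2 measures gave −26.1 and −23.3 points and at least 3 S phase members −16.2 points, and in DN1-DN3 cells the last gave −12.1 points. The cause of these shifts was not tested, except that a stricter count has fewer cells. Depth limits the low splenic members: Bub1 rested on 8 to 24 UMIs per library in thinned cells. Tyms and Hmgb2 have processed pseudogenes, with which reads can be shared.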
